A study of Homo sapiens with 6 samples.

Results

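Neurons and neuroendocrine cells share a set of genes that build axons and dendrites, release transmitter from synaptic vesicles, store peptides in dense-core granules and stabilise neuronal mRNAs. A list of 37 such genes, among them the transcriptional repressor REST, was looked up by gene symbol in a table of 19892 genes measured in HEK293 cells. These cells are a human line derived from embryonic kidney. RNA was sequenced from 3 wild-type libraries and from 3 libraries of HEK293 cells in which CNBP had been knocked out with CRISPR-Cas9. CNBP binds single-stranded DNA and RNA through zinc knuckles. No treatment is named for either group, and the labels do not say whether the knockout cells were 1 clone, or whether separate cultures were used for the libraries. All 37 symbols were found, and each has 1 value for wild type and 1 for knockout.

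REST is a zinc-finger protein that binds a DNA element called RE1 near many neuronal genes and recruits the corepressors CoREST and SIN3A. It is best known for keeping neuronal genes low in cells that are not neurons. Most of the genes described here, such as those for synapsin, synaptotagmin, stathmin-2 and the granins, are classical genes of that neuronal programme, while others, such as the ubiquitin hydrolase UCHL1, are also active in many cultured lines.

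The values are FPKM, fragments scaled to transcript length and to the number of mapped fragments, so that levels can be compared between genes. With 1 value per gene and group there is no spread between libraries, and no difference below has a replicate check, an error or a p-value. Sequencing depth is unknown. Each ratio is the log2 of knockout over wild type, and a gene was counted as apart at 1.5-fold (0.58 on the log2 scale). CNBP mRNA stood at 202 FPKM in wild type and 214 FPKM in knockout, which leaves the column labels unchecked. In RNA from whole cultures, fewer cells of a type and less RNA per cell cannot be told apart.

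Of the 37 genes, 26 reached 1 FPKM in at least one column and were compared, and 9 stayed below it in both. MAPT (tau) and NEFL (the light neurofilament subunit) are listed at 0, but with a transcript length of 0. All 669 genes with that length are at 0 in both columns, so these genes were treated as not quantified and nothing is said of their expression. REST and 16 other compared genes reached 5 FPKM. The levels ran from the listed 0 of ELAVL4 in wild type to 487 FPKM for UCHL1, which lay above 99.2% of the 19223 quantified genes.

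**Figure D1:**
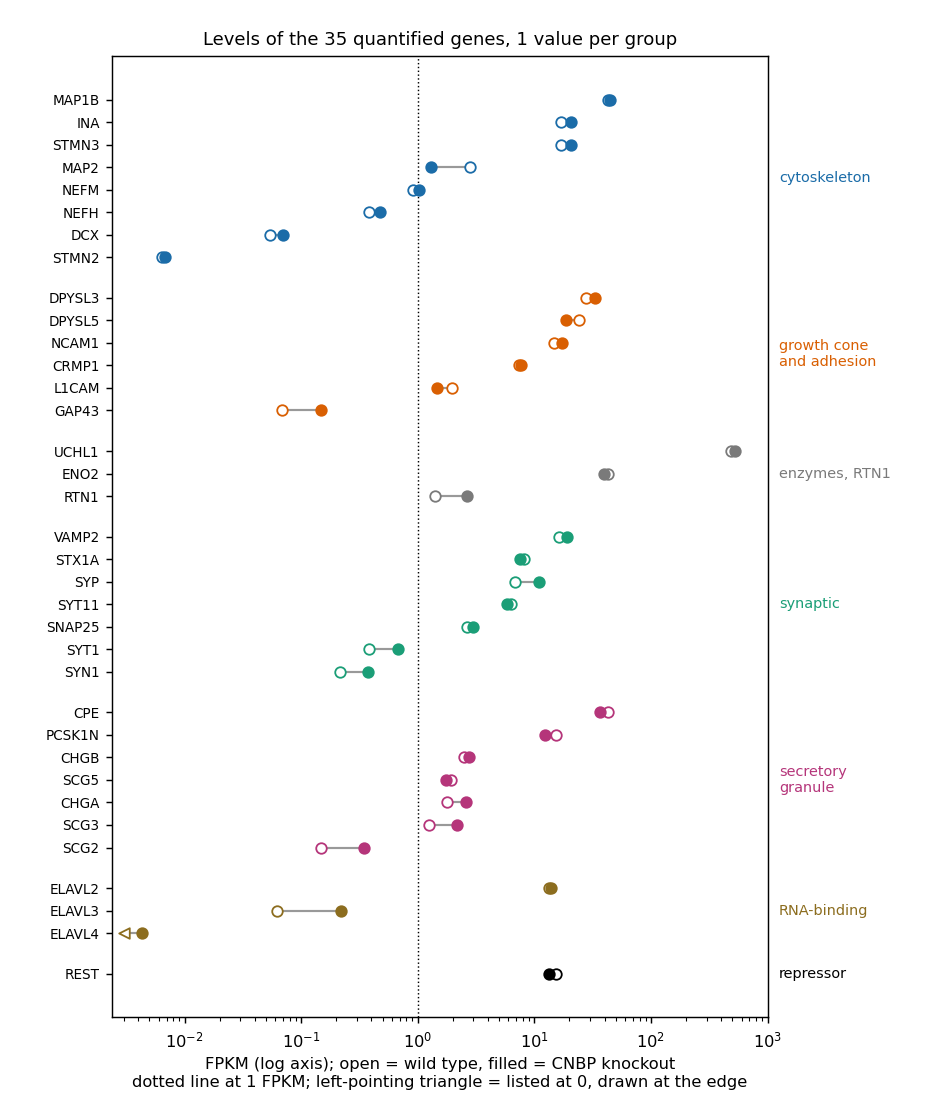
FPKM of the 35 quantified genes on a log axis, grouped by role, with an open symbol for wild type and a filled symbol for CNBP knockout, 1 value each. Most pairs lie close together. MAP2 moves left from 2.81 to 1.31 FPKM, while RTN1, SYP, SCG3 and all genes below the dotted line at 1 FPKM move right.

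The ratios of the compared genes lay on both sides of 0. Of 26, 16 (61.5%) were within 1.2-fold, beside 78.2% of all 13219 compared genes. The quartiles were -0.14 and 0.25 for the members and -0.15 and 0.12 for all compared genes. A log2 ratio above 0 was found for 16 of 26, where 48.7% of all compared genes had one. The median was 0.09, against -0.01 over all compared genes. At 1.5-fold, 3 genes were higher in knockout (RTN1, SCG3 and SYP) and 1 was lower (MAP2), which is 15.4% of the 26 beside 4.27% of all compared genes. Of all compared genes, 1.48% were higher and 2.78% lower at that fold. Ratios spread more widely at low levels. Among genes with a mean of 1 to 5 FPKM, 3 of 8 members were apart beside 12.3% of all genes. At a mean of 5 to 50 FPKM it was 1 of 16 members, SYP, beside 1.69%. UCHL1 alone had a mean of 50 FPKM or more and was not apart, and in that range 0.593% of all genes were. NEFM, with 0.912 and 1.02 FPKM, had a mean below 1 FPKM and is in none of these ranges.

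**Figure D2:**
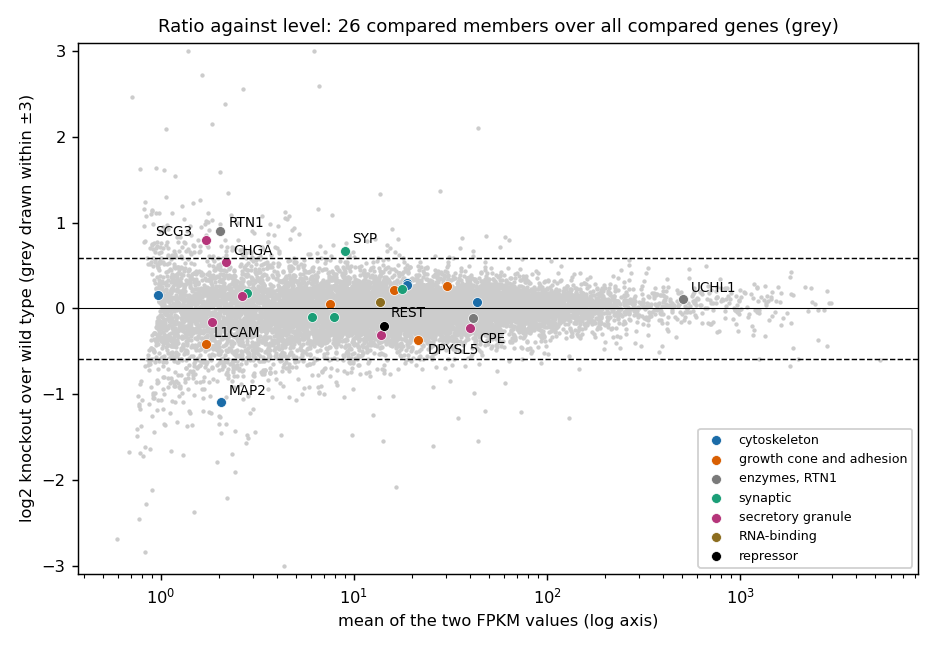
Log2 ratio of knockout over wild type against the mean of both FPKM values (log axis), with all 13219 compared genes in grey, the 26 compared members in colour and dashed lines at 1.5-fold. RTN1, SCG3 and SYP lie above the upper line, MAP2 lies below the lower line, and UCHL1 sits far to the right near 0.

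REST itself was measured at 15.3 FPKM in wild type and 13.3 FPKM in knockout, a log2 ratio of -0.21 (1.15-fold lower). Its gene overlaps NOA1, which is read in the other direction, and whether fragments were assigned by strand is not stated. A list of 24 genes for its corepressors and regulators was read beside it. Of these, 22 were compared, 16 with a ratio above 0 and 6 below, where 48.7% of all compared genes were above 0. None was 1.5-fold apart, beside 4.27% of all compared genes and 1.69% of those with a mean of 5 to 50 FPKM. The median of the 22 was 0.10. The most abundant were USP7, which removes ubiquitin from REST (156 and 178 FPKM, log2 ratio 0.19), and the histone deacetylase HDAC2 (148 and 159 FPKM, 0.10). Named with their values already known were also the CoREST gene RCOR1 (26.4 and 27.4 FPKM), SIN3A (31.7 and 35.8 FPKM) and the demethylase KDM1A (96.5 and 106 FPKM). SRRM4, a splicing factor of neurons that can switch REST to a truncated form, stood below 0.1 FPKM in both columns. The histone methyltransferase EHMT2 is listed at 0 in both, which may be a missing estimate.

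The promoters of 27 of the 37 genes were available from RefSeq (GRCh38.p14), from 250 bases before to 50 after each start. They were searched on both strands for the left and right motifs of RE1, CAGCACC and GGACAG, which in the classical element stand 2 bases apart (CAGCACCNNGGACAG). SCG3 held both motifs in the same order but 8 bases apart. Motifs 2 to 9 bases apart occur in 0.122% of all 35116 windows. Matches to the joined RE1 forms in other members are not reported here. The left motif, with or without the right one, occurred in 4 of the 27 genes beside 9.3% of the 27305 genes in the table. The right motif occurred in 11 beside 24.0%. These shares per gene are not like for like. The 27 members had 53 windows, more per gene than the 35116 windows of the 27305 genes, and more windows give more matches. Per window, 7.75% of all held the left motif and 20.5% the right. Whether the members hold more than other genes was not tested. CRMP1, with a ratio of 0.05, was also counted for both motifs. The promoter of SCG3, a granule protein gene 1.74-fold higher in the knockout column, is shown because it holds both motifs 8 bases apart. It is written 5′ to 3′ on the strand of the gene, with the RE1 motifs in capitals.
SCG3: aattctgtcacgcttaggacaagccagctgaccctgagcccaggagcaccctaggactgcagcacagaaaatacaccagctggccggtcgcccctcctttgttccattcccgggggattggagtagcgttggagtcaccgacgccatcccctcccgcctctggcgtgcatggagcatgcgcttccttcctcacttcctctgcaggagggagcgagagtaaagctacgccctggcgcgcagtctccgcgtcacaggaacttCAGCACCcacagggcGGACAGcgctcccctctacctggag
The SCG3 window is chr15:51681253-51681552 on the plus strand, and its RE1 motifs begin at the 11th and 26th base after the start. A match of letters is a description and shows no binding in these cells.

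Of the synaptic vesicle and membrane fusion genes, SYP stood furthest apart among those compared. Transmitter release needs VAMP2 on the vesicle to join with STX1A and SNAP25 on the plasma membrane, and synaptotagmins supply the calcium sensor. SYP encodes synaptophysin, an abundant membrane protein of synaptic vesicles. It stood at 6.89 FPKM in wild type and 11.0 FPKM in knockout, a log2 ratio of 0.67 (1.60-fold higher). It was the only member above 5 FPKM that was 1.5-fold apart. The vesicle SNARE gene VAMP2 had 16.3 and 19.1 FPKM (log2 ratio 0.23). The plasma membrane SNARE genes did not share a direction: SNAP25 had 2.62 and 2.97 FPKM (0.18), and STX1A, which overlaps WBSCR22 on the opposite strand, 8.114 and 7.597 FPKM (-0.09). SYT11, a synaptotagmin that does not bind calcium, had 6.27 and 5.85 FPKM (-0.10). The calcium sensor SYT1 went with SYN1, the vesicle phosphoprotein synapsin I, to the genes below 1 FPKM. The median ratio of the 5 compared synaptic genes was 0.18.

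Dense-core granule genes were split. Granins such as CHGA, CHGB, SCG2 and SCG3 are acidic proteins that help granules form and are cut into peptides, whereas CPE, SCG5 and PCSK1N belong to the processing machinery. SCG3 stood at 1.25 FPKM in wild type and 2.18 FPKM in knockout (1.74-fold higher), but its log2 ratio of 0.80 became 0.50 with a pseudocount of 1 FPKM, below 1.5-fold. CHGA had 1.77 and 2.57 FPKM, a log2 ratio of 0.54 and just short of 1.5-fold. CHGB had 2.52 and 2.77 FPKM (0.14). The ratios of the 3 processing genes among the members were below 0. CPE, the carboxypeptidase that trims peptide hormones, was the most abundant granule gene with 43.1 and 36.7 FPKM (-0.23). PCSK1N, an inhibitor of the convertase PCSK1, had 15.3 and 12.4 FPKM (-0.30), and SCG5, the chaperone of the convertase PCSK2, 1.94 and 1.74 FPKM (-0.16). The convertases PCSK1 and PCSK2, which are not members and are named with their values known, stayed below 1 FPKM. Their ratios were above 0, at 0.15 for PCSK1 and 0.47 for PCSK2. The convertase FURIN, also outside the set and named with its values known, had 20.1 and 17.3 FPKM (-0.22). Of 10 compared granule genes outside the set, 6 had a ratio above 0 and 4 below. The median over the 6 compared granule members was -0.01, and their summed level with SCG2 was 66.0 FPKM in wild type and 58.7 FPKM in knockout.

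Cytoskeletal genes held the lowest ratio of the whole set. MAP2, which binds microtubules in dendrites, stood at 2.81 FPKM in wild type and 1.31 FPKM in knockout, a log2 ratio of -1.10 (2.14-fold lower). No other gene model at 1 FPKM or more overlaps it, and its 20 nearest compared genes had a median of -0.07. The other 4 compared cytoskeletal genes had ratios above 0 and within 1.5-fold. MAP1B, a microtubule-binding protein of growing axons, had 42.5 and 44.5 FPKM (0.07). STMN3, a stathmin that destabilises microtubules, had 16.9 and 20.7 FPKM (0.30). The intermediate filament gene INA, internexin, had 17.0 and 20.5 FPKM (0.27), and the middle neurofilament subunit NEFM 0.912 and 1.02 FPKM (0.16). The median of the 5 was 0.16.

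Growth cone and adhesion genes lay on both sides of 0, and none reached 1.5-fold. The collapsin response mediators, which relay guidance signals to the cytoskeleton, differed among themselves: DPYSL3 had 27.6 and 32.9 FPKM (0.26), DPYSL5 24.3 and 18.9 FPKM (-0.37), and CRMP1, which overlaps EVC on the opposite strand, 7.38 and 7.65 FPKM (0.05). Both members of the immunoglobulin superfamily of adhesion molecules were measured, NCAM1 at 14.9 and 17.2 FPKM (0.21) and L1CAM at 1.96 and 1.47 FPKM (-0.41). The median of the 5 compared genes was 0.05.

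A pair of soluble enzymes long used as neuronal markers was abundant and nearly level. UCHL1, a ubiquitin hydrolase, had 487 FPKM in wild type and 527 FPKM in knockout (0.11). ENO2, the neuron-specific enolase, had 43.0 and 39.9 FPKM (-0.11) and overlaps LRRC23 on the same strand. RTN1, a reticulon that shapes the endoplasmic reticulum in neuroendocrine cells, had the highest ratio among compared members, with 1.41 FPKM in wild type and 2.64 FPKM in knockout (0.91, 1.88-fold higher). It passed 1.5-fold also with a pseudocount of 1 FPKM, at a log2 ratio of 0.60.

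The ELAV RNA-binding proteins stabilise AU-rich mRNAs. ELAVL2, the member HEK293 cells expressed, had 13.2 FPKM in wild type and 14.0 FPKM in knockout (0.08). ELAVL3 stood at 0.0622 and 0.219 FPKM, and ELAVL4 was listed at 0 and at 0.00434 FPKM. The ubiquitous paralogue ELAVL1 had 77.9 and 82.4 FPKM and made up 85.4% of the family's summed FPKM in wild type and 85.3% in knockout.

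All 9 quantified members below 1 FPKM had the greater value in the knockout column. ELAVL4 is one of them, listed at 0 in wild type, which leaves 8 with a ratio. Over all genes, 49.6% of the 3648 genes below 1 FPKM and above 0 in both columns had a ratio above 0. The granin SCG2 had 0.149 FPKM in wild type and 0.347 FPKM in knockout (log2 ratio 1.22), and ELAVL3 had the widest ratio at 1.81. GAP43, the growth-associated protein of axon tips, had 0.0682 and 0.147 FPKM (1.11). The vesicle genes SYT1, with 0.385 and 0.683 FPKM, and SYN1, with 0.217 and 0.371 FPKM, had ratios of 0.83 and 0.78. The span of SYN1 overlaps ARAF and TIMP1 on the opposite strand. These 5 genes were 1.5-fold higher, none was 1.5-fold lower, and the shares among all genes below 1 FPKM were 20.5% and 21.2%. The remaining ratios were 0.37 for the microtubule protein DCX, 0.32 for the heavy neurofilament subunit NEFH and 0.08 for the stathmin STMN2, which had under 0.01 FPKM in both columns. Values this low rest on few fragments, whose number is unknown, and the pattern was noticed in the same values that it describes.

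**Figure D3:**
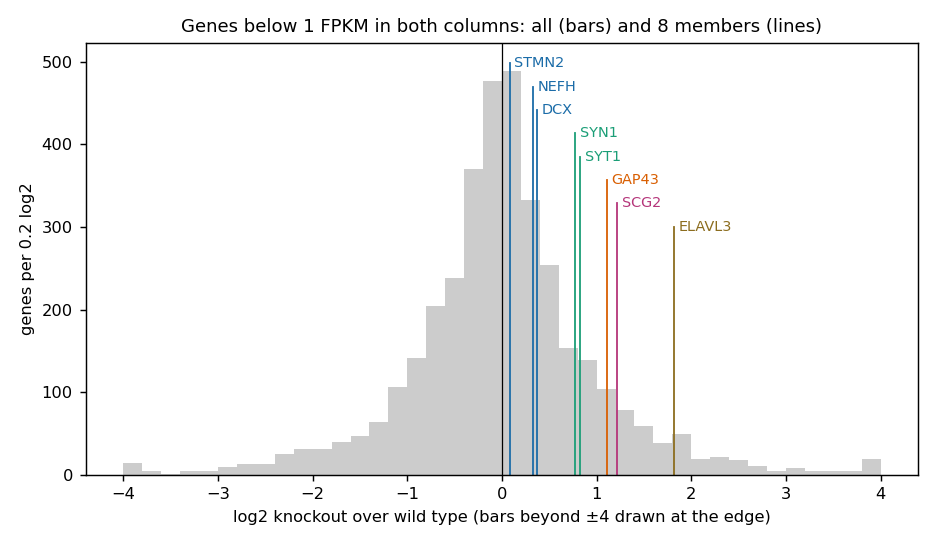
Histogram of the log2 ratios of the 3648 genes below 1 FPKM and above 0 in both columns, in bins of 0.2, with a coloured line for each of 8 members (line heights only separate the names). All 8 lines lie to the right of 0, from 0.08 for STMN2 to 1.81 for ELAVL3.

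Related genes outside the set were read at the same low levels. They were taken from 6 lists of 140 genes in all. Of these lists, 26 genes lay below 1 FPKM and above 0 in both columns. Among them 17 (65.4%) were higher in knockout, 5 were 1.5-fold higher and none 1.5-fold lower, with a median of 0.12. The 5 of 26 are a share near the 20.5% of all genes below 1 FPKM. The low exocytosis genes contributed 7 of 8, the granule genes 4 of 7 and the neuronal transcription factors 4 of 9. Of the marker lists, the mature neuron genes had 1 of 4 higher, with GAD2, an enzyme that makes GABA, at 0.479 and 0.0971 FPKM (-2.30) and the glutamate transporter SLC17A7 at 0.574 and 0.297 FPKM (-0.95). The lists for adrenal cortex, with 4 of 5, and kidney epithelium, with 5 of 7, were mostly higher. So were those for chromaffin cells, with 3 of 4, neural progenitors, with 2 of 3, and glia, with 2 of 3. GAD2 and SLC17A7 were named with their values known.

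At 1 FPKM or more the related lists differed among themselves, and no difference between them and the members was tested. The REST corepressors, described above, had 16 of 22 ratios above 0. Of 106 compared genes, 2 were 1.5-fold higher and 4 lower (5.66%, beside 4.27% of all compared genes), and the median was -0.00. Other cytoskeletal genes had a median of -0.14, with 10 of 15 below 0. MAP6, which protects microtubules from cold, had 1.21 FPKM in wild type and 0.610 FPKM in knockout (-0.99), and peripherin, PRPH, an intermediate filament of peripheral neurons, 5.98 and 3.92 FPKM (-0.61). In the other exocytosis genes, 20 of 34 were below 0. CPLX2, a complexin that clamps SNARE complexes, had 1.40 and 2.14 FPKM (0.61), while the vesicle GTPase RAB3A, overlapping MPV17L2 on the opposite strand, had 2.58 and 1.65 FPKM (-0.65) and the synaptotagmin SYT12 1.297 and 0.747 FPKM (-0.80). Of the other granule genes, VGF, a precursor of secreted neuropeptides, was higher with 0.903 and 1.39 FPKM (0.62), and 9 of 10 were within 1.5-fold. None of the 17 other RNA-binding genes was apart, with a median of 0.02. The most abundant were the splicing repressor PTBP1 (406 and 413 FPKM) and FXR1 (92.3 and 104 FPKM), which overlaps CCDC39 on the opposite strand. None of the 8 compared transcription factors was apart either, with SOX4 at 49.9 and 45.5 FPKM and GATA2 at 7.41 and 7.29 FPKM.

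**Figure D4:**
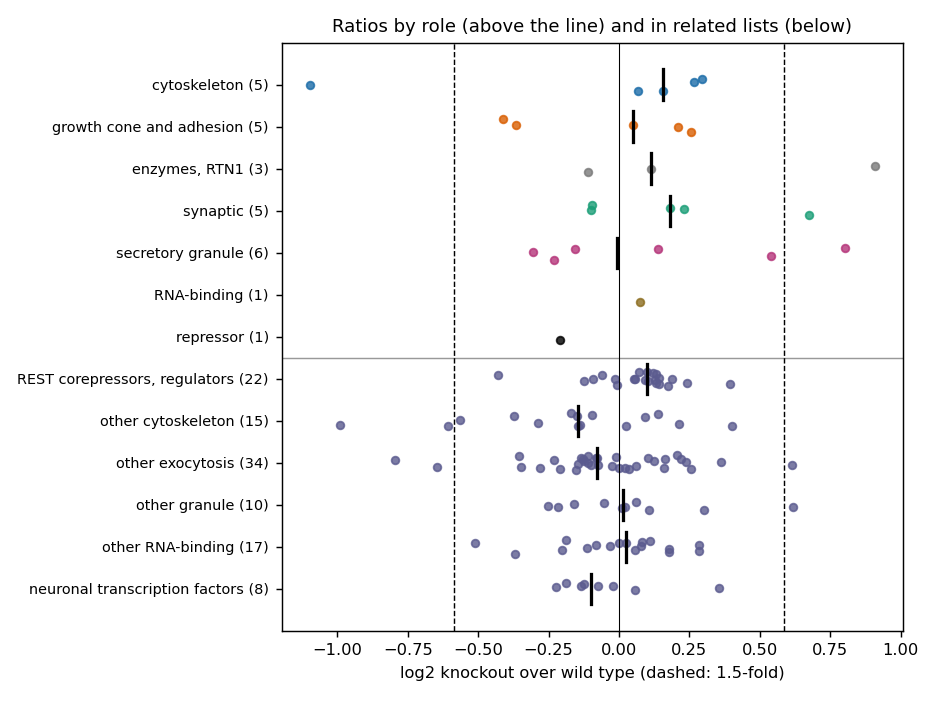
Log2 ratio of each compared gene by role (above the grey line) and in the related lists (below it), with the number of genes in brackets, a black bar at the median of groups of at least 3 and dashed lines at 1.5-fold. The synaptic bar lies at 0.18, the granule bar near 0 with genes on both sides, and MAP2 stands alone at -1.10.

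In several gene families a widely expressed paralogue stood far above the neuronal member. These families were put together after the values were seen. STMN1 supplied 94.8% of the summed FPKM of the 4 stathmins in wild type and STMN3 5.07%. Vimentin, VIM, supplied 95.2% of the 6 intermediate filament genes that were set side by side, and INA 3.17%. SNAP23, which overlaps LRRC57 on the opposite strand, stood at 41.2 and 43.0 FPKM beside 2.62 and 2.97 FPKM for SNAP25. VAMP2 made up 8.16% of the 5 VAMP genes in wild type and 10.1% in knockout. The gap was smaller for DPYSL3, DPYSL5 and MAP1B. DPYSL3 (27.6 and 32.9 FPKM) stood below DPYSL2 (37.6 and 33.4 FPKM) in wild type and near its level in knockout. DPYSL5 stood lower than both (24.3 and 18.9 FPKM). DPYSL2 overlaps PNMA2 on the opposite strand. MAP1B made up 36.8% of its family in wild type, close to the 38.8% of MAP4, a microtubule-binding protein of many tissues. STX1A again stood below a paralogue. It made up 12.0% of the 5 syntaxins in wild type and 12.3% in knockout, with STX4 highest at 28.5 and 22.4 FPKM. Synaptophysin stood far below its ubiquitous relative SYPL1, which had 53.9 and 53.0 FPKM. It made up 6.08% of its family in wild type and 9.08% in knockout.

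**Figure D5:**
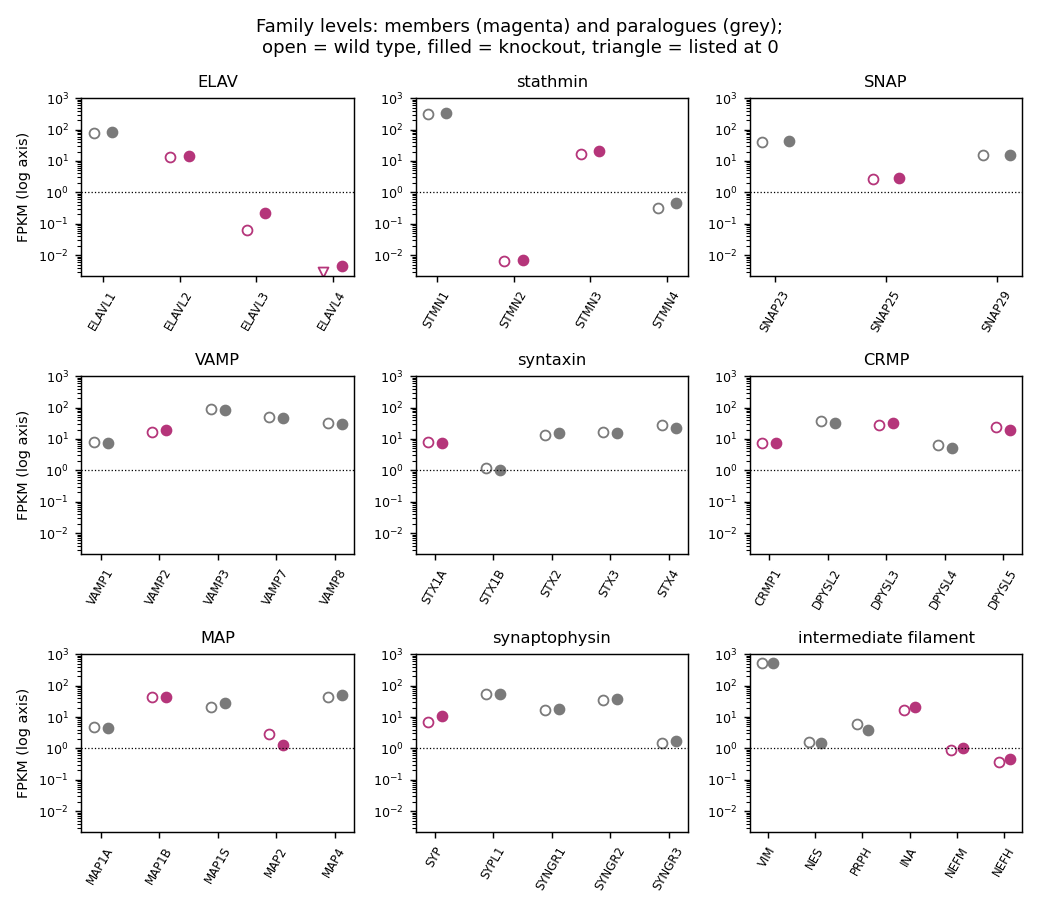
FPKM on a log axis for members (magenta) and paralogues (grey) of 9 families, with an open symbol for wild type and a filled one for knockout, and a triangle where ELAVL4 is listed at 0. ELAVL1, STMN1 and VIM stand above the neuronal members of their families. DPYSL3 lies close to DPYSL2 in knockout and below it in wild type, with DPYSL5 lower than both.

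The title of the series concerns binding of CNBP to G-rich elements in coding sequences. The pentamer TGGAG was therefore counted in the longest complete coding sequence of each gene, on the coding strand (GENCODE 29). The 26 compared members had a median of 3.37 per kb, against 2.84 over 13118 compared genes. Of all compared genes 50% lay above that overall median, and of the compared members 53.85%. The 4 members that were 1.5-fold apart all lay below it. Members within 1.5-fold lay below it too, such as MAP1B with 1.35 per kb and SYT11 with 0.773 per kb. A link between the counts and the ratios was not tested. SYP had none in 939 bases, SCG3 had 1.42 per kb, RTN1 1.72 per kb and MAP2 2.19 per kb. The densest was STX1A, with 9 in 864 bases (10.4 per kb), above 99.7% of compared genes and with a ratio of -0.09. STMN3 followed with 9.26 per kb and a ratio of 0.30. Bases 421 to 510 of the STX1A coding sequence hold 3 of its 9 copies and are shown as the most concentrated stretch of 90 bases in the densest member. STX1A lies on chromosome 7, and TGGAG is in capitals.
STX1A: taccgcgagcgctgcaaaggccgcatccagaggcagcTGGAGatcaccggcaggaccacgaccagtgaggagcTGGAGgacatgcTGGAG
These counts concern the sequence and mRNA levels. Binding and translation were not analysed here.

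The members lie on 18 chromosomes. Around the compared members, the median of the 20 nearest compared genes ran from -0.14 for SYP to 0.16 for SYT11. The ratio of SYT11 itself was -0.10. SYP, SYN1, PCSK1N, L1CAM and DCX are on the X chromosome, whose 428 compared genes had a median ratio of -0.07. The 20 nearest compared genes had a median of -0.14 around SYP and -0.10 around PCSK1N, which had ratios of 0.67 and -0.30 themselves. With that median taken off, MAP2 had a log2 ratio of -1.03, RTN1 0.97, SCG3 0.76 and SYP 0.82, and no compared member changed sign.

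Markers of other cell types were read to check the label of the line. Of 12 genes of kidney epithelium, LRP2 (10.6 and 9.03 FPKM) and PAX2 (2.71 and 2.16 FPKM) reached 1 FPKM, and 9 stayed below it in both columns. UMOD, the uromodulin of the thick ascending limb, was named with its values known and stood at 0 and 0.0309 FPKM. Of 8 chromaffin cell genes, the vesicular amine transporter SLC18A2 alone reached 1 FPKM, at 5.14 and 6.04 FPKM. It overlaps PDZD8 on the opposite strand. PNMT was next at 0.779 and 0.884 FPKM. The catecholamine enzymes TH and DBH were under 0.02 FPKM. Of 8 adrenal cortex genes, CYP17A1, which overlaps WBP1L on the opposite strand, was highest at 1.503 and 1.11 FPKM. STAR, which overlaps ASH2L on the opposite strand, followed at 0.425 and 0.269 FPKM. CYP21A2 is listed at 0 in both columns, which may be a missing estimate. The summed levels were 14.4 and 12.6 FPKM for the kidney list, 7.10 and 7.96 FPKM for the chromaffin list and 2.08 and 1.68 FPKM for the adrenal cortex list. In wild type, LRP2 gave 10.6 FPKM of the kidney sum. The neural progenitor, mature neuron and glial lists summed higher, to 26.6, 23.8 and 20.1 FPKM in wild type. The lists differ in their number of genes, and the part of these cell types in the results was not tested.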

How the data were processed

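RNA of wild-type and CNBP knockout HEK293 cells was made into 3 libraries each. Per the labels' protocols, the kit kept strand. Per the submitters' processing notes, TopHat, Cufflinks and Cuffdiff were used with hg19. Not given in the sources used here are versions, annotation, strand setting and the pooling of libraries. The authors' deposited table gives each gene 1 FPKM value for wild type and 1 for knockout. The FPKM unit is not named there and was taken from the tools and the range of values. The longest transcript length per gene is also in the deposited table, and a length of 0 was read as not quantified.

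The ratio of knockout over wild type was computed without a pseudocount for genes with at least 1 FPKM in one column and above 0 in both (13219). Genes were counted at 1.5-fold, with no test, because a linear model needs values per library. The members, lists, thresholds and motifs were chosen with earlier results of these data known. All members were to be named, with up to 4 genes 1.5-fold apart or else the 2 most abundant from each related list, and the 2 most abundant of each marker list. Gene order, overlaps of gene spans and coding sequences came from GENCODE 29 by Ensembl ID (36 of 37 members matched), which is on another build, so no coordinates of genes are given. Promoter sequences and their coordinates are from RefSeq on GRCh38.p14. It held no entry for CHGB, ELAVL3, MAPT, NCAM1, NEFH, NEFL, NEFM, SCG2, SNAP25 and STMN2. Some promoters and a marker gene are not reported here. The scripts were tested on simulated data. Python 3.11.15, numpy 2.4.6, pandas 2.3.3 and matplotlib 3.10.9 were used.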

Additional observations from a re-analysis of the deposited data

How the results depend on the processing

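The number of members 1.5-fold apart, 4 of 26, depended on the level required. It was 1 of 17 with a minimum of 5 FPKM (1.72% of all genes) and 9 of 34 with no minimum (12.4%), of which 8 were higher. It was 1 at a fold of 2 (1.02%) and 10 at a fold of 1.2 (21.8%). It stayed at 3 or 4 with a pseudocount of 1 or 0.1 FPKM, with centring and with the neighbours' median taken off. The same held without members that overlap other gene models and without REST. Leaving out REST was a setting added after the data were seen. With a pseudocount of 1 FPKM, SCG3 fell below 1.5-fold. The median of the members ran from 0.07 to 0.17 under these settings. With a minimum of 5 FPKM the cytoskeletal median was 0.27 over 3 genes and the synaptic median 0.068 over 4. The granule median was 0.14 with no minimum. The growth cone and adhesion median was -0.077 without CRMP1, which overlaps another gene. Each of these role medians was taken over a changed set, which genes had left or, for the granule median, joined. No paired analysis was possible because the table has 1 value per group, and for the same reason no replicate could be left out. Depth is unknown, and the ratios of genes below 1 FPKM are the least certain.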

Other observations

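Several genes of other neural cell types were above 1 FPKM, and none of them was 1.5-fold apart. Of 9 genes of mature neurons, GAD1, which makes GABA, had 11.0 FPKM in wild type and 12.3 FPKM in knockout, and the neuronal splicing factor RBFOX3 4.74 and 4.16 FPKM. The glutamate transporter SLC17A6 was listed at 0 in both columns. Of 6 neural progenitor genes, PAX6 had 18.2 and 16.6 FPKM and overlaps ELP4 on the opposite strand, and SOX2 had 6.65 and 8.37 FPKM. Of 8 glial genes, 3 of the 4 compared had a ratio below 0. MBP, the myelin basic protein, had 8.14 and 6.55 FPKM, and GFAP, which overlaps CCDC103 on the opposite strand, 4.93 and 5.08 FPKM. The oligodendrocyte factors OLIG1 (log2 ratio -0.52) and OLIG2 (-0.48), chosen after their values were seen, had the lowest ratios of the glial list. The summed levels were 23.8 and 23.3 FPKM for the mature neuron list, 26.6 and 26.5 FPKM for the progenitor list and 20.1 and 16.8 FPKM for the glial list.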
